A study of Saccharomyces cerevisiae with 6 samples.

Results

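The COS and PAU genes of Saccharomyces cerevisiae are families of closely related genes that lie mostly near chromosome ends. Genes were taken as members where the array's gene name was COS or PAU followed directly by a number, which gave 18 of the 6256 genes on the array, 11 COS genes (COS1 to COS10 and COS12) and 7 PAU genes (PAU1 to PAU7). Cos proteins are membrane proteins that help ubiquitin-dependent sorting of other membrane proteins into the multivesicular body, the endosome whose cargo is degraded in the vacuole. PAU genes, the seripauperins, encode small serine-poor relatives of the DAN and TIR cell wall mannoproteins, and many of them are induced when oxygen is low. Genes next to telomeres can also be held down by silent chromatin built on Rap1, the Ku heterodimer and the Sir proteins.

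The study measured how mutations in the PI3K domain of Tra1, the large subunit that the acetyltransferase complexes SAGA and NuA4 have in common, altered gene expression. Every strain carried a chromosomal TRA1 disrupted by Tn10LUK and a myc-tagged copy of the gene on the plasmid YCplac111, a centromeric LEU2 vector. The plasmid held TRA1_SB in the reference strain and tra1-P3408A, tra1_SRR3413 or tra1-S3463A in the mutants, so the controls shared the disruption, the tag and the plasmid. Total RNA of a mutant and of the reference was hybridised to the same 2-colour oligonucleotide array, with 2 arrays per allele in swapped dyes, which the series calls biological replicates. On array 1 of each allele the mutant was in Cy5, and on array 2 it was in Cy3. Culture medium, growth stage and oxygen supply are not given in the sources used here.

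The values below are log2 ratios of mutant over reference, so that 0 is no difference, and allele means are given ± SD over n = 2 arrays. Where 3 values stand together, they follow the order tra1-P3408A, tra1_SRR3413, tra1-S3463A. A gene passed the test where its adjusted p in limma (moderated test, Benjamini-Hochberg over all 6119 genes tested) was under 0.05. All 18 members passed the filter on dim probes and were tested. As a check of the strains, TRA1 itself read 1.02 ± 0.26, 1.44 ± 0.70 and 1.24 ± 0.72, above 0 in each mutant. In limma its adjusted p was 0.0887, 0.0260 and 0.0497, so it did not pass in tra1-P3408A. The reference carried TRA1 on the same plasmid, and why the mutants read higher was not tested. PHO5, a phosphatase gene, read -2.30 ± 0.10, -2.28 ± 0.47 and -1.95 ± 0.61. Median processed signals of an array lay between 1180 and 1377 in either dye, and 99.2% to 99.6% of gene spots exceeded background well in both dyes. RNA came from whole cultures, so a change in every cell and one in a fraction of the cells cannot be told apart.

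The families differed from each other in the sign and spread of their ratios. The median of the 11 COS ratios was 0.10, 0.12 and 0.12, where the medians of all genes were -0.011, -0.0074 and 0.0016. The COS median turned to -0.017 in tra1-P3408A with the slide as a block and to -0.0814 in tra1-S3463A under median centring in place of loess. COS genes passed as higher in 0, 1 and 2 cases, where 4.76%, 9.33% and 6.37% of all genes were called higher. None passed as lower, where 7.93%, 11.7% and 8.69% of all genes did. At an unadjusted p under 0.05 in limma, 1, 3 and 2 of the 11 COS genes were higher and 0 were lower, where 13.2%, 17.8% and 16.0% of all genes were higher and 15.6%, 18.8% and 16.6% lower at that level. A share of COS genes called higher that is near the share of all genes is no result about the family. By adjusted p the COS shares were 0%, 9.09% and 18.2%, above that of all genes only in tra1-S3463A. That share rests on 2 genes, COS6 and the dim COS12, and its difference from all genes was not tested. All 7 PAU genes were below 0 in every allele, with medians of -0.26, -0.36 and -0.21 over both arrays, but 0 passed in either direction. In limma 0 of the 7 PAU genes had an unadjusted p under 0.05, where 28.8%, 36.7% and 32.6% of all genes did in either direction. Without array 1 of tra1-P3408A the PAU median there was 0.05, with all 7 genes above 0.

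The calls changed where the array number, which marks the dye orientation, entered the limma fit as a block. The blocked fit called 2, 3 and 3 COS genes higher and 1, 5 and 0 PAU genes lower. Of all genes it called 16.9%, 24.1% and 21.2% higher and 19.3%, 25.1% and 21.9% lower. With the slide as a block, 1, 3 and 4 COS genes were called higher and 0, 1 and 6 PAU genes lower, where 21.3%, 25.0% and 24.5% of all genes were called higher and 22.5%, 26.1% and 24.2% lower. Deviations common to paired arrays of different alleles no longer count as spread in such a fit, including those of the reference, so its counts may be too large.

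**Figure D1:**
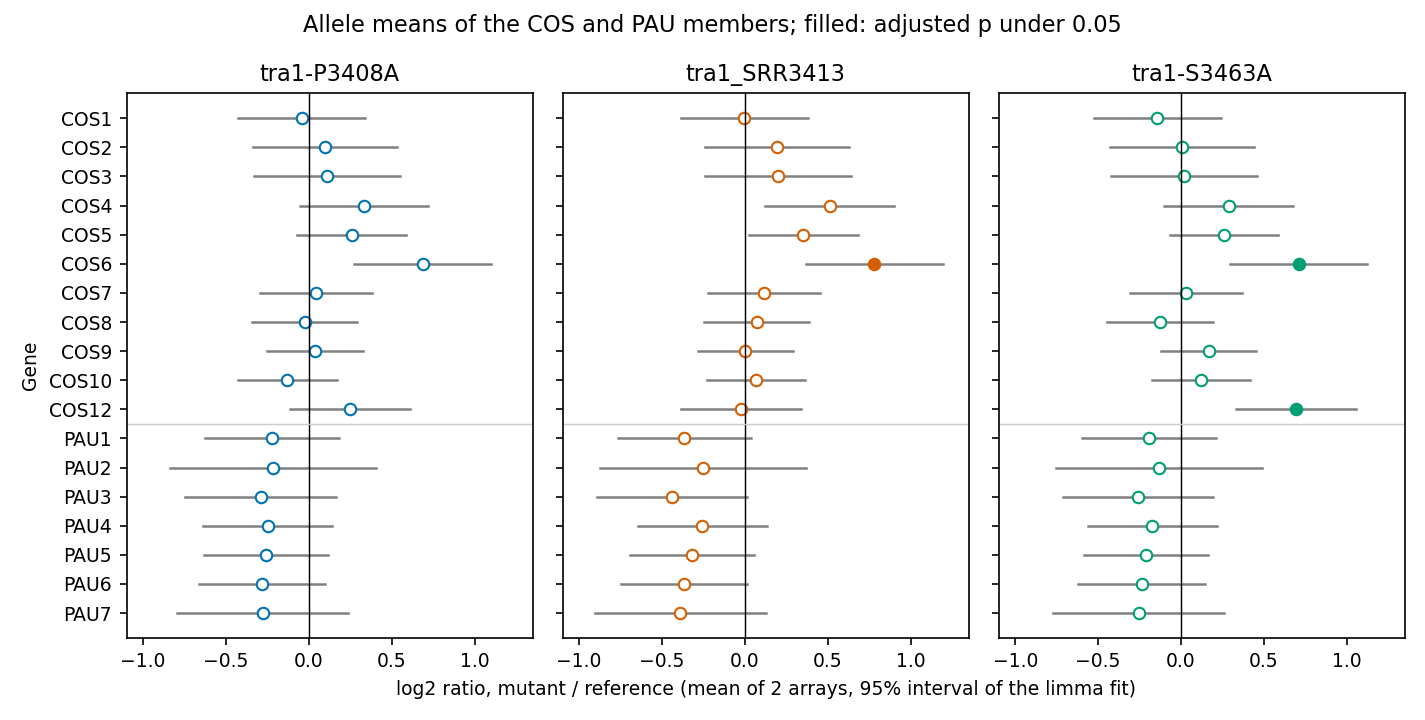
Mean log2 ratio of mutant over reference for each of the 18 members (points, n = 2 arrays) with the 95% interval of the limma fit (lines), in 1 panel per allele. Filled points passed the test without a block: COS6 in tra1_SRR3413 and in tra1-S3463A, and COS12 in tra1-S3463A. Every PAU point lies left of 0 with an interval that includes 0.

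COS6 was the highest COS member by mean ratio in each allele. Arrays 1 and 2 gave 0.96 and 0.41 for tra1-P3408A, 0.93 and 0.63 for tra1_SRR3413, and 0.83 and 0.59 for tra1-S3463A. All 6 arrays lay above 0, and the arrays of the alleles overlapped. The means were 0.69 ± 0.39 (1.61-fold), 0.78 ± 0.22 (1.72-fold) and 0.71 ± 0.17 (1.64-fold). COS6 rose in tra1_SRR3413 (limma, adjusted p = 0.0253) and tra1-S3463A (0.0429), and in tra1-P3408A its adjusted p was 0.05005. With the array number as a block, the adjusted p was 0.00328, 0.00168 and 0.00291. The call in tra1_SRR3413 was lost without array 1 of that allele (0.63, adjusted p = 0.126), without its array 2 (0.93, 0.0728) and under median centring in place of loess (0.80, 0.0518). The call in tra1-S3463A was lost without either of its own arrays (0.59, adjusted p = 0.213, without array 1; 0.83, 0.143, without array 2), without either array of tra1-P3408A (0.0601), under median centring (0.0806) and where array 1 of tra1-S3463A was counted with tra1_SRR3413 (0.155).

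COS4 and COS5 also lay above 0 on every array, with smaller ratios. COS4 read 0.58 and 0.08 on arrays 1 and 2 of tra1-P3408A, 0.63 and 0.39 on those of tra1_SRR3413, and 0.42 and 0.15 on those of tra1-S3463A. Its means of 0.33 ± 0.35, 0.51 ± 0.17 and 0.29 ± 0.19 had adjusted p-values of 0.238, 0.0690 and 0.269 in limma. With the array number as a block they were 0.0252, 0.00498 and 0.0346, so that COS4 passed in all 3 alleles. COS5 averaged 0.26 ± 0.29, 0.35 ± 0.11 and 0.26 ± 0.06, and did not pass in limma without a block. With the array number as a block it passed in tra1_SRR3413 (adjusted p = 0.0195). With the slide as a block it passed in tra1_SRR3413 (0.0331) and tra1-S3463A (0.0200).

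COS12 rose in tra1-S3463A, with a mean of 0.69 ± 0.26 (1.62-fold, limma adjusted p = 0.0316, or 0.0119 with the array number as a block). It read 0.88 and 0.51 on arrays 1 and 2 of tra1-S3463A, 0.05 and 0.45 on those of tra1-P3408A, and -0.02 and -0.02 on those of tra1_SRR3413. Both tra1-S3463A arrays lay above all 4 others. The tra1_SRR3413 mean was 0.72 below that of tra1-S3463A (95% interval 0.20 to 1.23), with an unadjusted p of 0.0140 and an adjusted p of 1.00 over all genes. COS12 was a dim probe: its processed signal was 7.89 to 20.0 in the reference and 7.77 to 82.7 in the mutants, and 1 of its 2 reference spots was not well above background on array 1 of tra1-P3408A and on both arrays of tra1_SRR3413. The tra1-S3463A value depended on the treatment of background, at 1.27 with no normexp offset and 1.81 with the scanner's processed signals. Its call was lost under median centring (0.25, adjusted p = 0.642), with array 1 of tra1-S3463A counted with tra1_SRR3413 (0.359), without array 1 (0.204) or array 2 (0.0888) of tra1-S3463A, and without either array of tra1-P3408A (0.0601).

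The other 7 COS genes, COS1 to COS3 and COS7 to COS10, lay between -0.14 and 0.20 in every allele, and none passed. COS7 and COS10 were dim, although their spots were well above background. Their processed reference signals were 90.5 to 107 and 57.0 to 87.5, and that of COS8 was 262 to 328. Array medians were 1180 to 1377. Ratios near 0 in such dim probes are weak evidence of no change. COS2 and COS3 tracked each other most closely of the 55 COS pairs. COS2 read 0.33 and -0.14 on arrays 1 and 2 of tra1-P3408A, 0.39 and -0.0004 on those of tra1_SRR3413, and 0.20 and -0.19 on those of tra1-S3463A. COS3 differed from it by at most 0.04 on any array. Both were high on array 1 and at or below 0.01 on array 2 of each allele. Across the 55 COS pairs the largest gap on any array had a median of 0.52 and reached 1.17, and across the 21 PAU pairs it had a median of 0.21 and reached 0.36. Each gene had 1 probe on the array, and probe sequences were not used here, so how far a probe read other members of its family was not tested. COS6 was measured in 2 spots per array, which differed by 0.03 to 0.19. Over the COS members with 2 spots this gap had a median of 0.05.

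**Figure D2:**
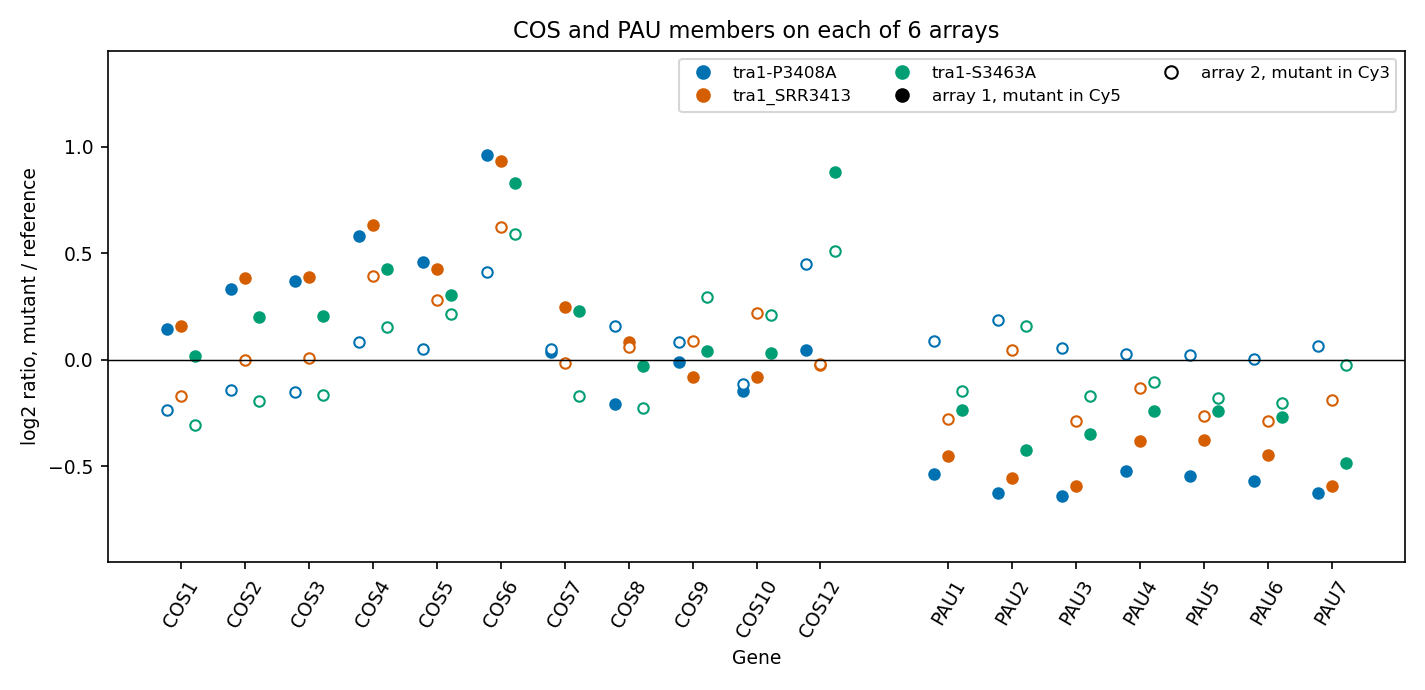
Log2 ratio of mutant over reference for each member (horizontal axis) on each of the 6 arrays, coloured by allele, with array 1 (mutant in Cy5) filled and array 2 (mutant in Cy3) open. COS6 lies above 0 on all 6 arrays, and all 7 PAU genes have lower filled than open points in each allele.

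The PAU genes moved as a tight group on each array. On array 1 the median of the 7 was -0.57 in tra1-P3408A (range -0.64 to -0.52), -0.45 in tra1_SRR3413 (-0.59 to -0.38) and -0.27 in tra1-S3463A (-0.49 to -0.24). On array 2 it was 0.05 in tra1-P3408A (0.0034 to 0.19), -0.26 in tra1_SRR3413 (-0.29 to 0.04) and -0.15 in tra1-S3463A (-0.20 to 0.16). The SD among the 7 genes was 0.05 to 0.13 on the 6 arrays, against 0.22 to 0.35 among COS genes and 0.44 to 0.61 among all genes. All 7 were below 0 on array 1 of each allele. On array 2 of tra1-P3408A all 7 were above 0, and on array 2 of the other alleles only PAU2 was.

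PAU3 had the lowest mean in each allele. It read -0.64 and 0.05 on arrays 1 and 2 of tra1-P3408A, -0.59 and -0.29 on those of tra1_SRR3413, and -0.35 and -0.17 on those of tra1-S3463A. The means were -0.29 ± 0.49 (adjusted p = 0.370), -0.44 ± 0.21 (0.145) and -0.26 ± 0.13 (0.391). Its SD in tra1-P3408A was larger than its mean, and the 2 arrays of that allele lay on either side of 0. PAU2 had the mean nearest 0 in each allele, with the widest gap between arrays: -0.62 and 0.19 in tra1-P3408A, -0.55 and 0.04 in tra1_SRR3413, and -0.42 and 0.16 in tra1-S3463A. PAU1, PAU4, PAU5, PAU6 and PAU7 had means of -0.17 to -0.39, with 95% intervals that all included 0. With the array number as a block, PAU1 (adjusted p = 0.0386), PAU2 (0.0413), PAU3 (0.0193), PAU6 (0.0344) and PAU7 (0.0126) passed as lower in tra1_SRR3413, and PAU7 (0.0453) in tra1-P3408A.

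The direction of the gap between an allele's 2 arrays was shared among the PAU genes but not among all COS genes. All 7 PAU genes were lower on array 1 than on array 2 in all 3 alleles, which was 21 of 21 gaps. The median gap, array 2 minus array 1, was 0.62, 0.25 and 0.13, where the median gaps of all genes were -0.0075, 0.013 and 0.017. Of the 11 COS genes 5, 3 and 2 were higher on array 2, beside 49%, 51% and 51.4% of all genes. COS1 to COS6, set apart after their values were seen, were higher on array 1 in 18 of 18 cases. That count follows from the choice of these genes. The other 5 COS genes were higher on array 2 in 10 of 15. Members are closely related and the alleles share a reference strain, so these cases are not independent. The array number is tied to the dye orientation, so a dye effect on these probes and a difference between the 2 RNA preparations cannot be told apart. The slides divided the arrays otherwise. On slide 1 the PAU medians were -0.57 (tra1-P3408A, array 1) and -0.45 (tra1_SRR3413, array 1), on slide 2 they were 0.05 (tra1-P3408A, array 2) and -0.27 (tra1-S3463A, array 1), and on slide 3 they were -0.26 (tra1_SRR3413, array 2) and -0.15 (tra1-S3463A, array 2). Each slide held 1 array of an allele, so no allele could be tested within a slide.

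**Figure D3:**
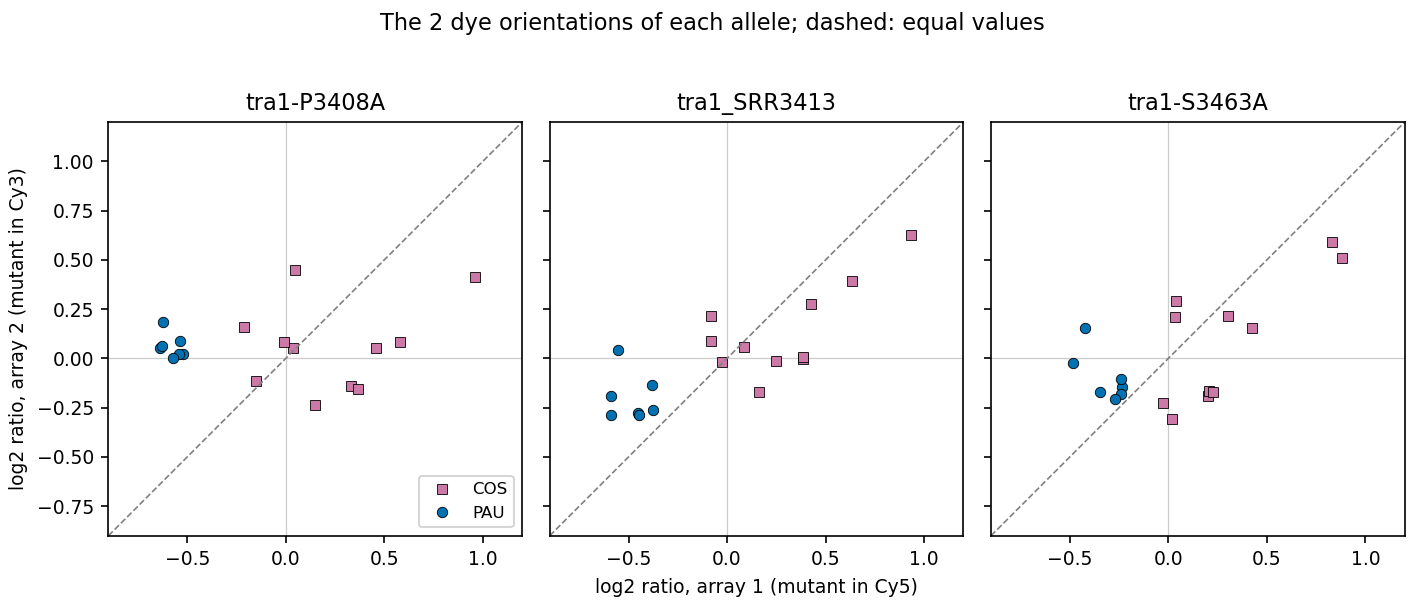
Log2 ratio of mutant over reference on array 1 (mutant in Cy5, horizontal axis) against array 2 (mutant in Cy3, vertical axis) for the 11 COS genes (squares) and 7 PAU genes (circles), in 1 panel per allele, with a dashed line of equal values. Every PAU gene lies above the dashed line in each panel, by a median of 0.62, 0.25 and 0.13.

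No member passed the test of a difference between alleles. The limma contrasts called 0 of 6119 genes (0%) in each of the 3 allele comparisons, where 105 genes had an unadjusted p under 0.05 for tra1_SRR3413 against tra1-P3408A, 105 for tra1_SRR3413 against tra1-S3463A and 6 for tra1-S3463A against tra1-P3408A. Among the members only COS12 had an unadjusted p under 0.05, in tra1_SRR3413 against tra1-S3463A. The PAU ratios of tra1_SRR3413 were 0.01 to 0.15 below those of tra1-P3408A and 0.09 to 0.18 below those of tra1-S3463A. The 95% intervals of these differences ran from -0.92 to 0.84 against tra1-P3408A and from -1.002 to 0.76 against tra1-S3463A, so differences of this size were not detectable with 2 arrays per allele. COS6 differed between alleles by 0.02 to 0.09, with 95% intervals from -0.56 to 0.68. The 3 alleles were compared with the same reference strain, so their ratios are not independent of each other.

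A further 17 genes on the array carry a PAU name in the RefSeq annotation of assembly R64 but not in the files. The files give most of them a systematic name and PAU23 and PAU24 a DAN name. Most of the 17 also lay below 0. Of these later-named PAU genes, 16 of 17 were below 0 in each allele, and their medians were -0.28, -0.37 and -0.21. None passed in limma without a block, where 0, 6 and 1 of the 17 were lower at an unadjusted p under 0.05, beside 15.6%, 18.8% and 16.6% of all genes. The blocked fit by array number called 3, 14 and 1 of them lower, beside 19.3%, 25.1% and 21.9% of all genes. PAU23, named DAN2 in the files, was the lowest in each allele at -0.49, -0.58 and -0.70 (adjusted p = 0.215, 0.119 and 0.0867). PAU22 read -0.32, -0.46 and -0.31, PAU21 read -0.32, -0.44 and -0.30, and PAU16 read -0.31, -0.45 and -0.27. PAU17 was the exception at 0.32, 0.14 and 0.22, and it was named after its values were seen.

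The calls of single genes outside the families, described next, rested on few arrays. Of 69 calls of list genes and neighbours, 9 passed with each of the 6 arrays left out in turn, and the other 60 were lost without at least 1 of them, while none turned sign in any alternative. The counts of calls per list stand beside 12.7%, 21.1% and 15.1% of all genes called in either direction without a block. Counts with the array number as a block stand beside larger shares. That fit called 19.3%, 25.1% and 21.9% of all genes lower and 16.9%, 24.1% and 21.2% higher. The 9 were COX5B, KTD1, SIR1, AIF1 and YML131W in tra1_SRR3413, and SRY1 and YLR460C in tra1_SRR3413 and tra1-S3463A.

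The PAU relatives among the DAN, TIR and TIP mannoprotein genes did not share 1 direction. Of 8 tested, 4, 4 and 3 were below 0, and 1 passed, DAN4, which fell by 0.57 on the log2 scale in tra1_SRR3413 (adjusted p = 0.0203). DAN4 read -0.38 in tra1-P3408A (0.0815) and -0.44 in tra1-S3463A (0.0513), and TIR2 read 0.36, 0.51 and 0.21 without passing. With the array number as a block, 1, 3 and 2 of the 8 were called lower and 1 in each allele higher. PAU23 and PAU24 (-0.26, -0.35 and -0.21) belong to this list and to the later-named PAU genes.

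Regulators of the anaerobic genes were mostly above 0, with medians of 0.25, 0.36 and 0.26 over the 11 genes tested. HAP1, the haem-responsive activator, rose by 0.63, 0.63 and 0.61 (adjusted p = 0.0326, 0.0229 and 0.0320). CYC8, which encodes the partner of Tup1 in a general corepressor, rose by 0.48, 0.77 and 0.52 (0.0492, 0.00944 and 0.0355). UPC2, the activator of sterol uptake and of DAN, TIR and PAU genes, rose by 0.48 in tra1_SRR3413 (0.0411) and read 0.37 in tra1-P3408A (0.104) and 0.41 in tra1-S3463A (0.0724). In all 2, 3 and 2 of the 11 rose and 0 fell. With 1 array left out, 0 to 1, 0 to 2 and 0 to 2 were called higher, and with the block 3, 7 and 5 were called higher and 0, 1 and 1 lower. SPT23, an activator of the fatty acid desaturase gene OLE1, read 0.21, 0.33 and 0.26 without passing.

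Of 15 other hypoxic genes 5, 4 and 4 fell, and none passed as higher in limma without a block. Of the 15, 12, 12 and 10 lay below 0 and 3, 3 and 5 above, with medians of -0.29, -0.38 and -0.19. OLE1, named after its values were seen, read 0.98, 0.62 and 1.08 without passing (limma, adjusted p = 0.0801, 0.182 and 0.0565). COX5B, the hypoxic isoform of a cytochrome c oxidase subunit, fell by 1.04, 1.02 and 0.95 (adjusted p = 0.00572, 0.00457 and 0.00722). CYC7, the hypoxic isoform of cytochrome c, fell by 1.19 in tra1-P3408A (0.0125) and tra1-S3463A (0.0116), and read -0.46 in tra1_SRR3413 (0.118). NCE103, carbonic anhydrase, fell by 1.13 in tra1-P3408A (0.0193) and 1.37 in tra1-S3463A (0.0104), and AUS1, a sterol uptake transporter, fell by 0.58 in tra1_SRR3413 (0.0162). The remaining genes that fell, named after their values were seen, were SCM4 in all 3 alleles and GPD2, a glycerol-3-phosphate dehydrogenase, in tra1-P3408A and tra1_SRR3413. Without 1 array at a time, 0 to 5, 2 to 4 and 0 to 4 were called lower, and with the block 7, 6 and 6 of the 15 were called lower and 1, 2 and 1 higher.

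The DUP240 genes, which encode membrane proteins related to the Cos proteins, lay on the other side of 0 from COS6. Of 9 tested, 8 were below 0 in each allele, with medians of -0.33, -0.44 and -0.33, and 3, 5 and 2 fell. KTD1, a defence factor against the K28 killer toxin, read -0.865, -1.03 and -0.78 and passed in each allele (adjusted p = 0.0193, 0.00853 and 0.0240). DFP3 fell by 0.61, 0.75 and 0.68 (0.0326, 0.0127 and 0.0215), DFP4 fell by 0.59 in tra1-P3408A (0.0207), and DFP1 fell by 0.53 in tra1_SRR3413 (0.0218). PRM8 (-0.44, adjusted p = 0.0493) and PRM9 (-0.63, 0.0300), both named after their values were seen, fell in tra1_SRR3413. When each array was dropped in turn, 0 to 3, 1 to 4 and 0 to 2 were called lower, and with the block 6, 8 and 6 of the 9 were.

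Among 20 genes of multivesicular body sorting, the pathway in which Cos proteins act, the called genes went in both directions in tra1_SRR3413. In the other alleles they only rose. BUL2, an adaptor of the ubiquitin ligase Rsp5, rose by 0.57, 0.73 and 0.58 (adjusted p = 0.0208, 0.00795 and 0.0194). The ESCRT-II subunit gene VPS36 rose by 0.65 in tra1_SRR3413 (0.0176) and 0.56 in tra1-S3463A (0.0334), whereas VPS25, of the same complex, fell by 0.49 in tra1_SRR3413 (0.0425). SRN2, of ESCRT-I, fell by 0.51 in tra1_SRR3413 (0.0493). In all 1, 2 and 2 rose and 0, 2 and 0 fell. The calls of VPS25 and SRN2 were lost whichever array was left out. The calls were 5%, 20.0% and 10% of the list, not above the 12.7%, 21.1% and 15.1% of all genes. The counts are therefore no result about the list. With 1 array left out, 0 to 1, 0 to 2 and 0 to 2 were called higher, and with the block 2, 5 and 3 were called higher and 4, 3 and 5 lower.

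**Figure D4:**
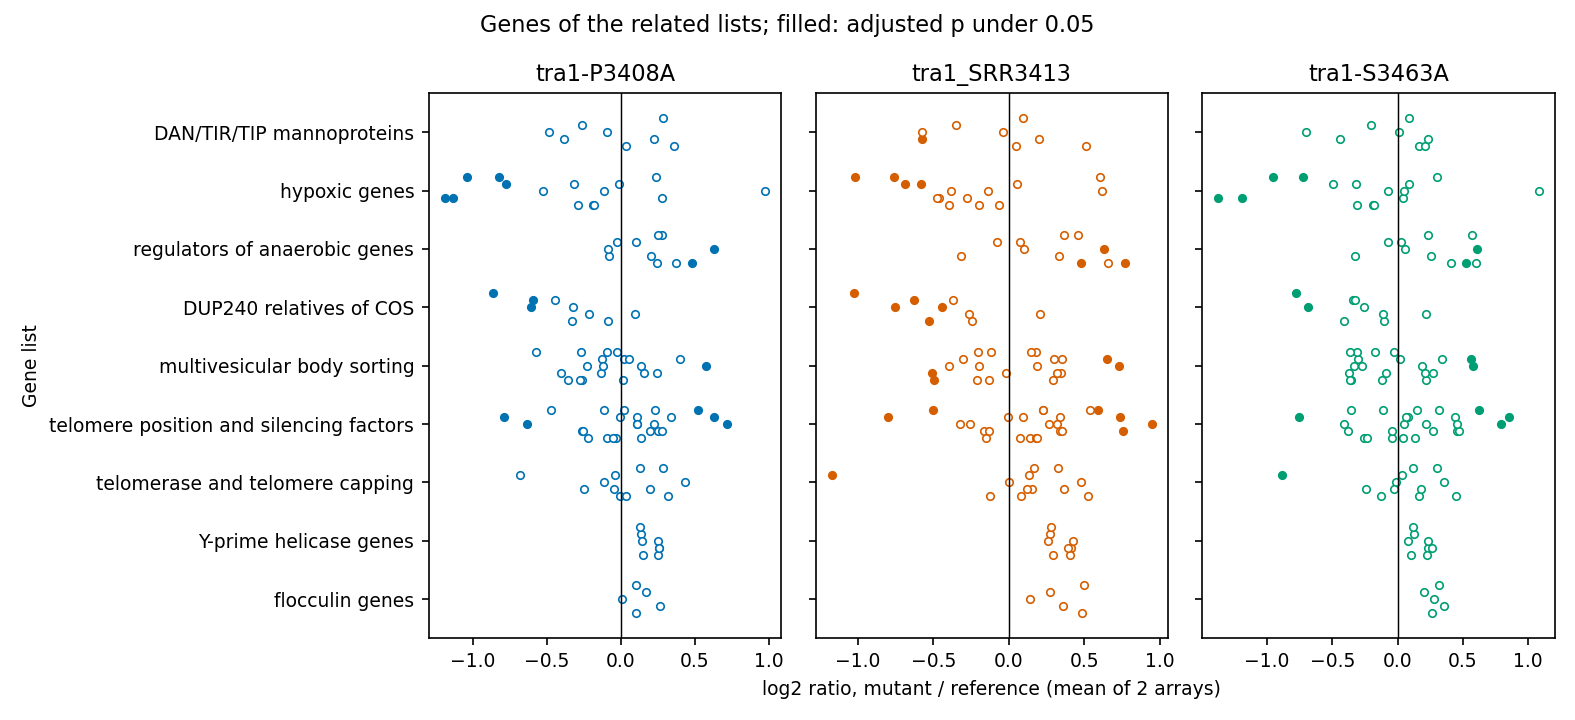
Mean log2 ratio of mutant over reference (n = 2 arrays) of every tested gene of 9 lists related to the families, in 1 panel per allele, with filled points for genes that passed in limma without a block. The called hypoxic and DUP240 genes lie left of 0, the called regulators of anaerobic genes lie right of 0, and no Y-prime helicase or flocculin gene is filled.

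Of 25 factors of telomere position and silencing tested, not all of them specific to telomeres, 3, 4 and 3 rose and 2, 2 and 1 fell. These calls were 20.0%, 24.0% and 16.0% of the list, near the 12.7%, 21.1% and 15.1% of all genes, so the counts are no result about the list. SIR1 rose by 0.72, 0.95 and 0.79 (adjusted p = 0.0138, 0.00469 and 0.00957), RAP1, the telomere repeat binding factor, by 0.63, 0.73 and 0.86 (0.0466, 0.0223 and 0.0189), and SAS2, an acetyltransferase for histone H4, by 0.52, 0.59 and 0.63 (0.0496, 0.0253 and 0.0285). YKU70, 1 of the 2 subunits of the Ku heterodimer, fell by 0.79, 0.80 and 0.75 (0.0125, 0.00891 and 0.0137). Named after their values were seen, RIF1 rose and YKU80, the other Ku subunit, fell in tra1_SRR3413, and ESC2 fell in tra1-P3408A. Without 1 array at a time, 0 to 3, 1 to 4 and 0 to 3 were called higher, and with the block 5, 11 and 9 were called higher and 4, 3 and 4 lower. Of 12 genes of telomerase and telomere capping, 1 passed: EST3, a telomerase subunit, fell by 1.17 in tra1_SRR3413 (0.0151) and 0.88 in tra1-S3463A (0.0413), and read -0.68 in tra1-P3408A (0.0875). EST1 (0.20, 0.36 and 0.18), EST2 (0.43, 0.48 and 0.35) and PIF1 (0.32, 0.52 and 0.45) did not pass. With the block 1 of the 12 was called lower in each allele and 1, 4 and 3 higher.

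Other repeated genes of the chromosome ends showed no calls without a block. The 8 Y-prime helicase genes tested, copies within the subtelomeric Y-prime repeats, were all above 0, with medians of 0.20, 0.34 and 0.17, and YRF1-3 read 0.25, 0.42 and 0.24. The 5 flocculin genes, which encode cell wall adhesins, were all above 0 with medians of 0.10, 0.36 and 0.28, and FLO9 read 0.10, 0.50 and 0.32. In limma 0 of the 8 had an unadjusted p under 0.05 in any allele, and 0, 3 and 1 of the 5 were higher at that level. With the array number as a block, 0, 6 and 0 Y-prime genes and 0, 3 and 3 flocculin genes were called higher. That fit called 16.9%, 24.1% and 21.2% of all genes higher.

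The families were also set beside other genes near them in the RefSeq gene order of R64, which may differ from the order in these strains. Repeated genes such as YRF1-3 were not left out of these. All 11 COS genes lay among the 6 genes nearest a chromosome end, as did 4 of 7 PAU genes, and PAU7, PAU2 and PAU5 lay 18, 34 and 48 genes from the end. Of the 393 tested genes among the 15 nearest each end, without COS and PAU genes, 13.2%, 20.1% and 13.5% fell (7.93%, 11.7% and 8.69% of all genes) and 3.31%, 5.60% and 5.09% rose (4.76%, 9.33% and 6.37% of all genes), with medians of -0.07, -0.07 and -0.06 for these end genes. The blocked fit by array number called 19.3%, 25.1% and 21.9% of all genes lower and 16.9%, 24.1% and 21.2% higher. Of the 393 end genes it called 115, 142 and 118 lower and 43, 86 and 65 higher. Without the block 52, 79 and 53 end genes were called lower and 13, 22 and 20 higher. When each array was dropped in turn, 0 to 56, 42 to 80 and 20 to 60 were called lower. The tested neighbours of COS6, MAL12 and YRF1-3, did not pass in any allele, nor did YGL262W, the neighbour of COS12, which read 0.09, -0.11 and 0.41.

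Some neighbours of uncalled members fell several-fold, and these were named after their values were seen. SRY1, next to COS9, read -1.73 and -1.85 on arrays 1 and 2 of tra1-P3408A, -1.86 and -1.98 on those of tra1_SRR3413, and -1.79 and -1.64 on those of tra1-S3463A. All 6 arrays lay below -1.6, and limma's adjusted p was 0.00140, 0.000778 and 0.00152. Without array 1 of tra1-P3408A the call in that allele was lost (-1.85, adjusted p = 0.0575). COS9 itself averaged 0.04, 0.0031 and 0.17. YML131W, next to COS3, averaged -1.73, -2.19 and -1.76, and YLR460C, next to PAU4, averaged -1.75, -2.03 and -2.05. AIF1, next to COS10 and 3 genes from PAU6 on the same side, averaged -1.45, -1.37 and -1.16. COS10 averaged -0.13, 0.07 and 0.12, and PAU6 averaged -0.28, -0.37 and -0.24. In all 6 of 30 neighbours (20.0%) passed as lower in at least 1 allele, the other two being YCR102C and DFP1, where 12.8% of all genes did. As higher 0 of the 30 passed, where 10.8% of all genes did in at least 1 allele, and whether neighbours differ from other genes was not tested.

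**Figure D5:**
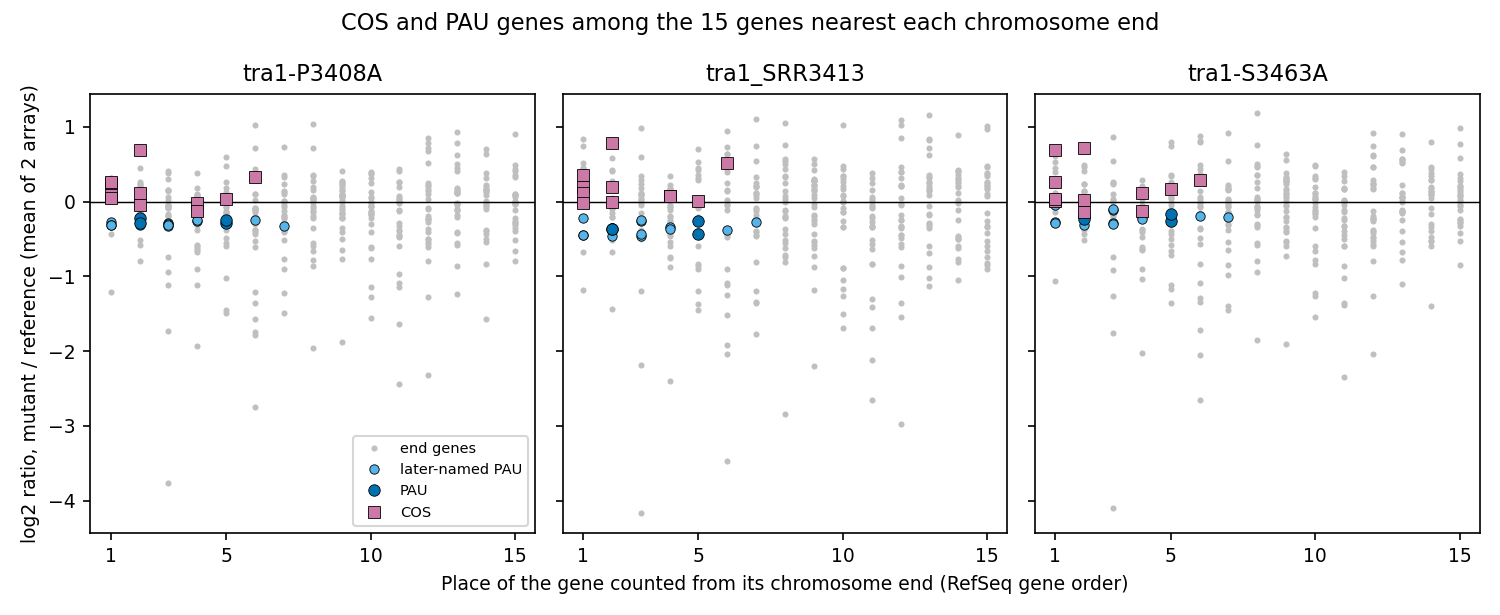
Mean log2 ratio of mutant over reference against the place of a gene counted from its chromosome end in RefSeq gene order, for the COS genes, the PAU genes, the later-named PAU genes and the other tested genes among the 15 nearest each end, in 1 panel per allele. COS6 and, in tra1-S3463A, COS12 are the highest of the COS points, the PAU points lie below 0, and some end genes fall below -1; members farther than 15 genes from an end are not drawn.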

How the data were processed

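The data are 2-colour hybridisations of a tra1 mutant against the TRA1_SB strain. The authors' scanner program (Agilent Feature Extraction, version 7.5.1 in the file headers) wrote uncorrected mean and background intensity values and a processed intensity from which background was subtracted and in which the dyes were balanced by lowess with a smooth factor of 0.25. A log10 ratio of red over green is deposited per spot, per the file headers. The deposited series table is a log10 ratio too, found to run as mutant over reference because 100% of comparable spots matched the turned dye-normalized ratio within 1e-04 (column medians 0.00274 to 0.0101). Deposited spot flags are 0 or 1, per the file headers, and call a spot well above background at 2.6 background SD.

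Here limma 3.58.1 was used in R 4.3.3, with the data.table package, version 1.17.8. All 10807 spots of an array were corrected by normexp (offset 50, on mean and background signals) and then by loess within the array, the 544 control spots having weight 0. Control spots and spots marked as outliers (0.370% to 8.02% of gene spots) were dropped, ratios were expressed as mutant over reference, and the spots of a gene were averaged. Genes had to be well above background in either dye on 2 or more arrays: 2 genes were not, another 135 had a missing array, and 6119 of 6256 were tested. A single limma fit of the 6 arrays gave each allele mean against 0 (two-sided) and, as contrasts, the allele differences, with 3 residual and 3.08 prior degrees of freedom. The fit was run on simulated data with independent noise in every array. Arrays of different alleles shared deviations here, so that run cannot show how well the p-values hold for these data. The number of arrays limits precision, and if 1 reference extract served several arrays, its own spread is missing from the test. Figures were made with matplotlib 3.10.9 in Python 3.11.15.

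Same-numbered arrays have the same dye orientation by the labels. Their deviations from allele means correlated between alleles at 0.512, 0.467 and 0.930, and they were therefore treated as paired in an alternative with the array number as a block. The 3 slides held 2 arrays each, and the slide as a block was another alternative. Others were median centring, the processed signals, the deposited ratios, no normexp offset, outlier spots kept, saturated spots dropped, no filter on dim probes, each allele fitted alone, and each array left out. Labels disagree in places: for array 1 of tra1-S3463A the source text gives the strain of tra1_SRR3413, and for array 2 of tra1_SRR3413 and of tra1-S3463A the source text of a channel gives the opposite dye. Groups follow titles, dyes follow label fields, and an alternative moved that array to tra1_SRR3413.

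Members and lists were chosen with earlier results of these data known. Named are every member, up to 4 genes per list by smallest unadjusted p in any allele, TRA1 and PHO5 as checks, and tested neighbours of called members; exceptions are marked. Lists are described by counts and medians only. MOX1 and MOX2 found no match, and TIP1 and 1 DUP240 gene were not tested. Symbols and gene order are from RefSeq's table of R64, which held 5756 (92.0%) of the systematic names. Probe and genome sequences were not used here.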

Additional observations from a re-analysis of the deposited data

How the results depend on the processing

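The calls of members rest on 2 arrays per allele, and the COS calls were sensitive to the fit. The count of COS genes called higher in tra1-P3408A, 0 in the report, was 2 with the array number as a replicate block and 1 with the slide as a block, with the series table, with saturated spots left out, with only the allele's own arrays and with array 1 of tra1-S3463A counted with tra1_SRR3413. In tra1_SRR3413, 1 in the report, it was 3 with either block, 0 under median centring and 2 with that array moved. In tra1-S3463A, 2 in the report, it was 4 with the slide as a block and 0 under median centring and with that array moved. PAU genes called lower, 0 in the report, were 1 in tra1-P3408A and 5 in tra1_SRR3413 with the array number as a block, and 1 in tra1_SRR3413 and 6 in tra1-S3463A with the slide as a block, a fit that called 1598 and 1481 of all 6119 genes lower in those alleles, against 718 and 532 without it. With 1 array left out in turn, COS genes called higher numbered 0 to 1 in tra1-P3408A and tra1_SRR3413 and 0 to 2 in tra1-S3463A, a lone array being assumed to vary like those of the other alleles. The PAU median in tra1-P3408A, -0.261 in the report, was 0.0534 without array 1 and -0.570 without array 2 of that allele. In the other alleles the PAU medians stayed below 0 in every alternative: -0.453 to -0.262 in tra1_SRR3413 and -0.270 to -0.146 in tra1-S3463A with 1 array left out, -0.229 in tra1_SRR3413 and -0.091 in tra1-S3463A under median centring, and -0.359 in tra1-S3463A with the slide as a block. The COS median turned to -0.017 in tra1-P3408A with the slide as a block and to -0.0814 in tra1-S3463A under median centring, and with 1 array left out it was 0.0528 to 0.146 in tra1-P3408A, 0.0576 to 0.248 in tra1_SRR3413 and 0.121 to 0.207 in tra1-S3463A. The median of the silencing factors in tra1-P3408A was -0.0167 to 0.129 with 1 array left out. For each of these changes the cause was not tested. Of the 69 calls of list genes and neighbours, 9 held in every alternative and 60 were lost without at least 1 array.

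Some uncalled members turned sign, and the lowest adjusted p among these turns was 0.295. With the slide as a block this held in tra1-P3408A for COS2 (-0.0342), COS3 (-0.017) and COS7 (-0.0653), and in tra1_SRR3413 for COS9 (-0.0236) and COS12 (0.107). Under median centring it held in tra1_SRR3413 for COS1 (0.0778), COS7 (-0.113) and COS10 (-0.211), and in tra1-S3463A for COS2 (-0.121), COS3 (-0.128), COS7 (-0.257) and COS10 (-0.209). With the processed signals, the deposited log ratio and the series table, COS1 was 0.0306 in tra1_SRR3413, and COS2, COS3 and COS7 were -0.0187, -0.0265 and -0.0054 in tra1-S3463A. With array 1 of tra1-S3463A counted with tra1_SRR3413, COS1 (0.0039) and COS12 (0.278) turned in tra1_SRR3413, and COS2 (-0.192), COS3 (-0.167), COS7 (-0.171) and PAU2 (0.156) in tra1-S3463A. With 1 array left out, the ranges in tra1-P3408A were -0.235 to 0.146 for COS1, -0.141 to 0.332 for COS2, -0.153 to 0.369 for COS3, -0.210 to 0.158 for COS8, -0.009 to 0.0825 for COS9, -0.534 to 0.0863 for PAU1, -0.623 to 0.187 for PAU2, -0.638 to 0.0534 for PAU3, -0.523 to 0.0247 for PAU4, -0.544 to 0.0221 for PAU5, -0.570 to 0.0034 for PAU6 and -0.626 to 0.0654 for PAU7. In tra1_SRR3413 they were -0.168 to 0.161 for COS1, -0.0004 to 0.385 for COS2, -0.0142 to 0.248 for COS7, -0.0818 to 0.0879 for COS9, -0.0825 to 0.218 for COS10 and -0.553 to 0.044 for PAU2. In tra1-S3463A they were -0.307 to 0.0193 for COS1, -0.192 to 0.203 for COS2, -0.167 to 0.207 for COS3, -0.171 to 0.227 for COS7 and -0.422 to 0.156 for PAU2. No alternative called a member different between alleles.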
